A study of Mus musculus with 10 samples.

Results

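The comparison set oxytocin neurons of the paraventricular hypothalamus (PVH) against its vasopressin neurons. The oxytocin side was cluster 1 of the authors' cell table, with 221 cells, and the vasopressin side was clusters 2, 3 and 4 together, with 53, 36 and 22 cells, or 111 in all. These 332 cells were drawn from 706 cells that passed the authors' quality control, of which another 332 belonged to other PVH clusters. Counts were summed per plate and side, and all 10 plates held at least 3 cells on each side, with 7 to 42 oxytocin cells and 6 to 20 vasopressin cells per plate.

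The cells were picked by hand from male *Agrp-IRES-Cre* x *Ai9* mice older than 7 weeks, all of a single condition, and every cell entered Smart-SCRB chemistry, in which a barcoded primer labels each cell's cDNA before a plate is pooled. In these mice Cre is driven from *Agrp*, a gene of arcuate neurons, and turns on the red reporter tdTomato. The methods use the labelled AGRP axons to find the border of the PVH, whereas the sample labels describe the picked cells themselves as labelled. The plates were the replicates. The study used 10 mice, which the labels do not tie to plates, so the spread between plates may be technical or may be between animals. The authors' cell table gives 3 batches, Q (4 plates), AL (2 plates) and JM (4 plates). AL and JM were pooled here, because the vasopressin clusters divide between Q plates and the rest, and a difference between AL and JM was not tested.

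Oxytocin and vasopressin are short peptide hormones that are each cut from a longer precursor, which also holds a neurophysin, a carrier protein that travels with the hormone. The large neurons that make them pack the precursor into dense-core vesicles, process it on the way down the axon and release the hormone into the blood from the posterior pituitary. Oxytocin is known for its actions in birth, milk ejection and social behaviour, and vasopressin for the retention of water and the control of blood pressure. Cell size and axon targets were not recorded, so whether each cell was of the large, magnocellular kind was not measured here.

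The genes *Oxt* and *Avp* are neighbours that lie tail to tail. In the GRCm38 annotation *Oxt* (ENSMUSG00000027301.7) occupies chr2:130576173-130577054 on the plus strand and *Avp* (ENSMUSG00000037727.6) chr2:130580620-130582554 on the minus strand, with 3565 bases between their 3′ ends. Each has 3 exons. The codons of the 9 residues of each hormone are shown because they are where the products of both cell types part. They lie at chr2:130576267-130576293 and chr2:130582446-130582472, on the strand of each gene, and capitals mark the bases that differ.
Oxt: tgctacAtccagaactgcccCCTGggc
Avp: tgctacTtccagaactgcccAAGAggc
Counted from the first base of these codons and with the *Oxt* base first, the differences are A7T, C21A, C22A, T23G and G24A, or 5 of 27 bases. The second exons, which encode most of the neurophysin, are shown because they decide how far reads of the 2 genes can be told apart. They lie at chr2:130576591-130576792 and chr2:130581056-130581257, and capitals again mark the bases that differ.
Oxt: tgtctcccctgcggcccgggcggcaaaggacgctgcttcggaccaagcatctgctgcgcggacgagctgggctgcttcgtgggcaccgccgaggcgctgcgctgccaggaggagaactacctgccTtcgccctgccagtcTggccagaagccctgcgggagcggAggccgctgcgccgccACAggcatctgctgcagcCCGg
Avp: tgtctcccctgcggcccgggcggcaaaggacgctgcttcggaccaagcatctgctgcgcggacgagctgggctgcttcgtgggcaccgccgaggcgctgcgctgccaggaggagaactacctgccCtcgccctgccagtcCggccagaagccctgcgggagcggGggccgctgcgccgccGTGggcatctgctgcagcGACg
Of their 202 bases 9 differ, so they are 95.5% identical, and the longest run of bases common to both transcripts is 127 bases long. This run ends 255 bases before the end of the *Oxt* transcript and 307 bases before the end of the *Avp* transcript. The third exons, at the 3′ ends that the barcoded primer copies from, are 178 and 230 bases long and share no run longer than 8 bases.

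The 250 bases before each start site (RefSeq, GRCm38.p6) are shown because *Oxt* and *Avp* differ in opposite directions between the sides. They are at chr2:130575919-130576168 on the plus strand and chr2:130582589-130582838 on the minus strand, written in the direction of transcription. Capitals mark TGACC, a half-site read by nuclear receptors, and CACGTG, an E-box, each searched on both strands (GGTCA is TGACC on the other strand).
Oxt: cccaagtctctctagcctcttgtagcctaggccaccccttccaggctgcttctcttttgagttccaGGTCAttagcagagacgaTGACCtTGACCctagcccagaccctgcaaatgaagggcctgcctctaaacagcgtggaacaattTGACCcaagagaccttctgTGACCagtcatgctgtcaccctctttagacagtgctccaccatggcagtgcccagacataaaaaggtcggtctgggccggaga
Avp: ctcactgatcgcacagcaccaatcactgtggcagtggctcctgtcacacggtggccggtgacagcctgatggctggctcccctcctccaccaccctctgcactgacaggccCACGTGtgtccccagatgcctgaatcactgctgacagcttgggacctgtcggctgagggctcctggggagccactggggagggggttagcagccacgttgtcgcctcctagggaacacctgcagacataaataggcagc
The *Oxt* window holds TGACC 5 times and CACGTG 0 times, and the *Avp* window holds TGACC 0 times and CACGTG 1 time. Of 32851 such windows in the table, 35.2% hold TGACC and 6.02% hold CACGTG at least once.

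The hormone genes checked the labels of both sides and are given as a description, since they mark the clusters. A level is given as CPM, a gene's share of all gene UMIs of a cell or sum scaled to 1000000, where a UMI is a molecular barcode counted for a gene in a cell. In single cells *Oxt* had a median of 77928 CPM in cluster 1, 315 CPM on the vasopressin side and 186 CPM in the other PVH clusters. *Avp* had a median of 68236, 49773 and 51501 CPM in clusters 2, 3 and 4, against 164 CPM in cluster 1 and 81.6 CPM in the other PVH clusters. At least 1 *Oxt* UMI was found in all 111 vasopressin cells and in 97.6% of the cells of other PVH clusters, so a lone UMI of a hormone gene did not mark a cell type. Summed per plate, *Oxt* ranged from 36375 to 87299 CPM on the oxytocin side (median 67338) and from 176 to 12277 CPM on the vasopressin side (median 521). *Avp* ranged from 29.7 to 15085 CPM (median 347) and from 25270 to 84048 CPM (median 56059). Neither gene's sides overlapped on any pair of plates.

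**Figure D1:**
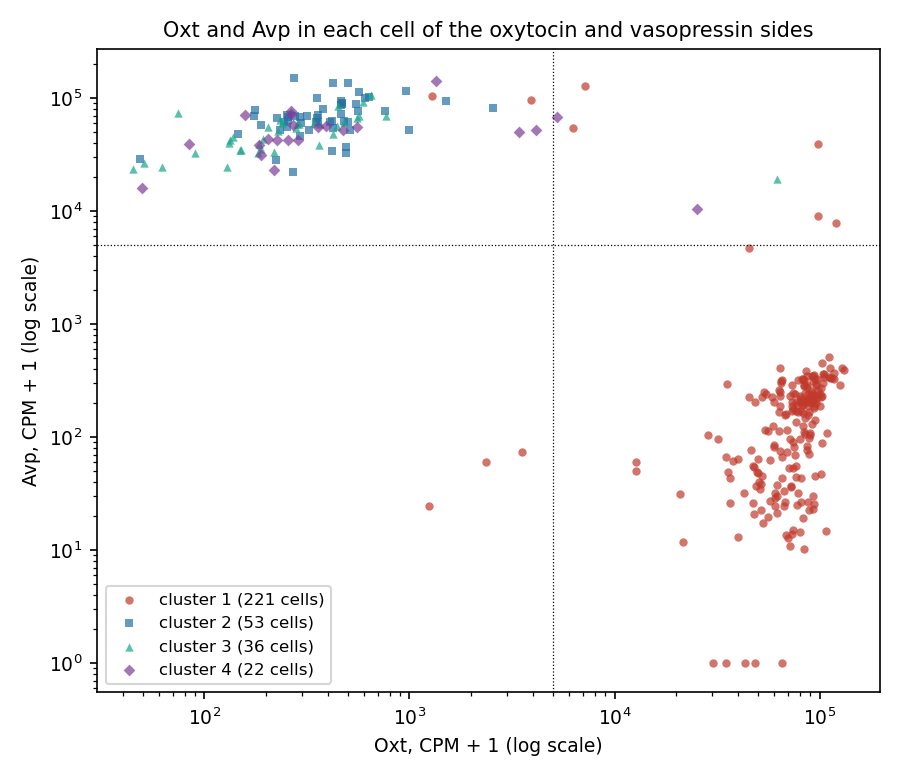
Each point is a cell, with Oxt on the x axis and Avp on the y axis, both in CPM + 1 on log scales, and dotted lines mark 5000 CPM. Cluster 1 lies at the lower right and clusters 2, 3 and 4 at the upper left, with 10 cells of either side that exceeded 5000 CPM of the other side's hormone gene.

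A group of 10 cells stood against this split. In cluster 1, 7 cells on 4 plates held over 5000 CPM of *Avp*, and 4 of these, on plates Q5, Q6 and Q8, held far more *Avp* (54589 to 129175 CPM) than *Oxt* (1280 to 7158 CPM). On the vasopressin side, 3 cells on plates AL6, JM5 and JM6 held over 5000 CPM of *Oxt*, and those on AL6 (62303 CPM of *Oxt* and 19210 of *Avp*) and JM5 (25367 and 10391) held more *Oxt* than *Avp*. No doublet caller was run. Leaving out all 10 cells, the test of all genes called 498 genes higher in oxytocin and 291 higher in vasopressin, beside 481 and 308 with them.

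The vasopressin side differed in make-up between batches. Of the 53 cells of cluster 2, 48 lay on Q plates, and clusters 3 and 4 lay almost wholly on AL and JM plates, with 1 cell of cluster 3 on plate Q7. Cluster 2 against clusters 3 and 4 and the Q plates against the others therefore cannot be told apart, while clusters 3 and 4 shared the AL and JM plates. A cell of either side held 50646 to 1078101 gene UMIs (median 174873), and the 20 sums per plate and side held 602612 to 14997184 UMIs. UMIs here are not a count of molecules, since amplification can add barcodes, and intervals given below cover counting error only.

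Both sides carried a PVH marker. Several markers of glia were at or near 0, while *Mbp*, *Cnp* and *Aldoc* were not. *Sim1*, a transcription factor of the PVH lineage, was between 54.2 and 114 CPM on the oxytocin side and between 73.3 and 136 CPM on the vasopressin side (edgeR adjusted p = 0.0674). Of the markers of other cell types, *Olig2* had no UMI on either side, *Pdgfra* and *Opalin* had 1 UMI each and *Aif1* 5 UMIs, all on the oxytocin side, and *Aqp4* had 14 and 7 UMIs. The vessel and ependyma list of 13 genes had none tested and summed to at most 12.8 CPM on any plate and side. The microglia list summed to at most 89.9 CPM on the oxytocin side and 76.9 CPM on the vasopressin side, and its single tested gene was not called. The astrocyte and oligodendrocyte lists reached 204 and 106 CPM, with *Aldoc* and *Cnp* called higher in oxytocin and *Mbp* higher in vasopressin, as given with the other lists. At least 1 UMI of *Aldoc* was found in 86.0% of oxytocin and 23.4% of vasopressin cells. For *Cnp* these shares were 58.4% and 11.7%, and for *Mbp* 31.7% and 53.2%.

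Gene by gene, the sides were compared by edgeR (quasi-likelihood F test, blocked on plate), and a gene was called at an adjusted p under 0.05 (Benjamini-Hochberg over 9927 genes). Fold changes are oxytocin minus vasopressin on the log2 scale. The test called 481 genes higher in oxytocin (4.85% of genes tested) and 308 higher in vasopressin (3.10%), and 228 and 198 of these moved in the same direction on all 10 plates. Over all genes tested the median fold change was 0.12. The clusters were drawn from these same cells and genes, so an adjusted p sets the size of a difference against the spread between plates and is no independent evidence that there are 2 sides. For 54 of the 481 and 50 of the 308 called genes the lowest plate of one side lay above the highest plate of the other. These counts cover called genes, and their shares over all genes tested were not counted. The filter on low counts kept a gene near 0 on one side only through the plates of the other. For such genes the same direction on all plates and the lack of overlap follow largely from the filter.

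Secreted signals led the list on both sides. Higher in oxytocin were *Adcyap1*, the precursor of the peptide PACAP, and the R-spondins *Rspo3* and *Rspo4*, secreted proteins that strengthen Wnt signalling. Higher in vasopressin were *Tac1*, the precursor of substance P and neurokinin A, *Pdyn*, the precursor of the dynorphins, and the growth factor *Bmp4*. The levels of these genes on each plate appear in the paired plot of 16 genes by plate.

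*Adcyap1* was at 12.3 to 76.5 CPM on the oxytocin side (median 26.8) and at 0 to 1.63 CPM on the vasopressin side (median 0). It rested on 1320 UMIs against 2, a ratio of 248 with a 95% interval of 68.6 to 2054 (edgeR adjusted p = 4.64e-06), and the sides did not overlap. At least 1 UMI was found in 99 of 221 oxytocin cells (44.8%) and 2 of 111 vasopressin cells (1.80%). With each cell thinned to 69500 UMIs these shares were 39.1% of 207 cells and 0 of 91, which allows a share of up to 3.30%, with 14 oxytocin and 20 vasopressin cells too shallow to enter.

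*Rspo3* was at 28.6 to 78.1 CPM on the oxytocin side (median 42.0), from 2296 UMIs, and had a UMI in 0 of 111 vasopressin cells, where a share of 2.70% or less cannot be told from 0. Against a floor of 3 UMIs over the vasopressin side this was at least 288-fold higher (edgeR adjusted p = 8.18e-05). *Rspo4* was at 25.8 to 55.0 CPM (median 40.8) against 0 to 8.16 CPM (median 0; log2 fold change 7.19, SE 0.86, edgeR adjusted p = 1.78e-05). The highest vasopressin plate for *Rspo4* was JM5, where all 5 UMIs came from the cell with more *Oxt* than *Avp*.

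*Tac1* was at 242 to 1324 CPM on the vasopressin side (median 632) and at 0 to 18.7 CPM on the oxytocin side (median 0.37). The log2 fold change was -9.02 (SE 0.70, edgeR adjusted p = 1.48e-05), and *Tac1* was found in 71.2% of vasopressin and 8.14% of oxytocin cells, or 65.9% and 3.86% after thinning. Plate Q5 held 280 of the 296 *Tac1* UMIs of the oxytocin side, at 18.7 CPM, and the cells with both hormones did not carry them. *Pdyn* was at 233 to 918 CPM (median 603) on the vasopressin side and 54.2 to 242 CPM (median 102) on the oxytocin side, higher in vasopressin on 10 of 10 plates with a log2 fold change of -2.24 (SE 0.15, edgeR adjusted p = 1.92e-08). *Pdyn* was found in 76.9% of oxytocin cells and 99.1% of vasopressin cells, or 71.0% and 97.8% after thinning, so most cells of both sides held it.

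Within the vasopressin side the level of *Pdyn* was 325 ± 107 CPM in cluster 2, 594 ± 168 in cluster 3 and 858 ± 208 in cluster 4 (SD, n = 5 plates each), and *Tac1* was 899 ± 716, 838 ± 377 and 404 ± 256 CPM. Cluster 2 cannot be told apart from its batch, and the difference between clusters 3 and 4 was not tested. Their means cover plates with at least 3 cells of a cluster, so JM7 entered for cluster 3 alone and JM5 for cluster 4 alone. Of 50 neuropeptide genes 9 were tested, and beside the hormone genes *Adcyap1* was called higher in oxytocin and *Tac1* and *Pdyn* higher in vasopressin, while *Gal*, *Sst* and 2 more were not called. Over all genes 4.85% were called higher in oxytocin and 3.10% in vasopressin. *Gal*, the galanin precursor, averaged 491 CPM in oxytocin and 704 CPM in vasopressin (log2 fold change -0.25, SE 0.27, edgeR adjusted p = 0.726).

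Genes that cut and pack prohormones were called in both directions. *Pam*, the enzyme that amidates the end of both hormones, was at 492 to 1096 CPM in oxytocin (median 795) and 212 to 429 CPM in vasopressin (median 319). Its log2 fold change was 1.38 (SE 0.11, edgeR adjusted p = 1.57e-07) with no overlap. *Pcsk2*, a prohormone convertase, went the other way, at 24.3 to 59.3 CPM in oxytocin (median 45.3) and 87.5 to 398 CPM in vasopressin (median 219; log2 fold change -2.25, SE 0.18, edgeR adjusted p = 1.68e-07). The sides again did not overlap. *Pcsk1*, the other neuroendocrine convertase, averaged 224 and 228 CPM and was not called (edgeR adjusted p = 0.855).

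Of 31 tested genes of granins and peptide processing, 8 were called higher in oxytocin and 9 higher in vasopressin, beside 4.85% and 3.10% of all genes, with a median log2 fold change of 0.09. Higher in vasopressin were the granins *Chga* (median 140 against 63.2 CPM, log2 fold change -1.01), *Scg2* (mean 500 against 113 CPM, -2.56), *Scg3* and *Vgf*, the carboxypeptidase *Cpe*, the convertase chaperone *Scg5*, the protease *Ctsl* and the vesicle GTPase *Rab3b*. *Scg2* averaged 5070 CPM in the other PVH clusters, above both sides. Higher in oxytocin were, beside *Pam*, the convertase inhibitor *Pcsk1n* (log2 fold change 0.36, SE 0.05, higher on 10 of 10 plates, with overlapping ranges), the vesicle priming factors *Cadps* and *Cadps2*, the convertases *Pcsk4* and *Pcsk6*, *Rab3c* and the calcium sensor *Syt7*. *Chgb*, another granin, was not called (edgeR adjusted p = 0.144).

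Genes of the secretory pathway were called in one direction. Of 46 tested, edgeR called 7 higher in vasopressin and 0 higher in oxytocin, beside a background of 3.10% and 4.85% over all genes, and the list's median log2 fold change was -0.09. At an unadjusted p under 0.05 these counts were 10 and 2, and DESeq2 called 10 and 1. In sum the list's 47 genes were at 14631 to 16837 CPM on the vasopressin side and 12411 to 13821 CPM on the oxytocin side. The sums did not overlap and were higher in vasopressin on all 10 plates. *Tmed10*, a cargo carrier of the early secretory pathway, was at 435 to 828 CPM in vasopressin (median 548) and 195 to 375 CPM in oxytocin (median 275; log2 fold change -0.98, SE 0.09, edgeR adjusted p = 7.55e-07). *Hspa5*, the main chaperone of the endoplasmic reticulum, was at 927 to 1495 CPM against 491 to 1071 CPM (log2 fold change -0.57, SE 0.07, edgeR adjusted p = 3.92e-05), higher in vasopressin on 10 of 10 plates with overlapping ranges. The other called members were *Ssr2* and *Ssr4* of the translocon, the disulfide isomerase *Pdia3*, the signal peptidase *Sec11a* and *Xbp1*, a transcription factor of the unfolded protein response.

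Of 18 tested genes linked to osmotic regulation 3 were higher in oxytocin and 1 in vasopressin, beside 4.85% and 3.10% of all genes. *Nos1*, neuronal nitric oxide synthase, was at 151 to 314 CPM in oxytocin (median 222) and 6.49 to 66.9 CPM in vasopressin (median 32.3; log2 fold change 3.16, SE 0.29, edgeR adjusted p = 7.06e-07). It was found in 99.1% of oxytocin and 36.9% of vasopressin cells, or 98.1% and 33.0% after thinning, and its sides did not overlap. *Slc12a5*, the chloride exporter KCC2, was higher in oxytocin by 1.21 (SE 0.23, 9 of 10 plates) and *Opn3*, encephalopsin, by 1.56 (SE 0.38, 8 of 10 plates). *Caprin2*, an RNA-binding protein that acts on *Avp* mRNA, was higher in vasopressin on 10 of 10 plates (median 249 against 141 CPM, log2 fold change -0.70, SE 0.14, edgeR adjusted p = 0.00249). *Creb3l1*, a transcription factor that drives *Avp*, averaged 24.2 CPM in vasopressin and 5.23 in oxytocin and was not called (log2 fold change -2.33, SE 0.88, edgeR adjusted p = 0.137). *Trpv1* had no UMI on either side and *Trpv4* had 1.

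Most of the receptors for hormones and peptides that were called were higher in oxytocin. Of 61 genes of the list in the data 17 were tested. Of these 17, 6 were called higher in oxytocin and 1 higher in vasopressin, beside 4.85% and 3.10% of all genes. The median log2 fold change of the 17 was 1.30, beside 0.12 over all genes. Members near 0 in vasopressin, such as *Cckar* and *Prlr*, passed the filter on low counts only through the oxytocin side. The counts and the median therefore only describe the tested members. *Cckar*, the receptor through which cholecystokinin reaches oxytocin neurons, was at 26.4 to 62.9 CPM in oxytocin (median 35.5) and was found as 1 UMI in vasopressin, against 2341, a ratio of 881 with a 95% interval of 158 to 34822 (edgeR adjusted p = 7.06e-07). *Prlr*, the prolactin receptor, was at 20.9 to 94.4 CPM against 0 to 4.66 CPM (log2 fold change 6.78, SE 0.77, edgeR adjusted p = 1.01e-05). Neither gene's sides overlapped. *Oprk1*, the kappa receptor on which dynorphins act, was at 95.3 to 302 CPM in oxytocin (median 158) and 0 to 99.6 CPM in vasopressin (median 10.2; log2 fold change 3.60, SE 0.51, edgeR adjusted p = 0.000107).

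*Rxfp3*, the relaxin-3 receptor, was higher in oxytocin on 10 of 10 plates (median 149 against 39.6 CPM, log2 fold change 1.78, SE 0.30). The somatostatin receptor *Sstr2* averaged 17.9 against 4.08 CPM and the vasopressin receptor *Avpr1a* 19.1 against 4.03 CPM, with edgeR adjusted p of 0.0312 and 0.0318. *Galr1*, a galanin receptor, was the member higher in vasopressin, at 0 to 95.0 CPM (median 32.6) against 0 to 13.5 CPM (median 0; log2 fold change -5.66, SE 0.98, edgeR adjusted p = 0.000907). The oxytocin receptor *Oxtr* and the vasopressin receptor *Avpr1b* had no UMI on either side. Counts of 0 here limit UMIs, not expression.

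Glutamate and GABA receptors divided evenly, with 6 of 33 tested members higher in oxytocin and 6 higher in vasopressin, beside 4.85% and 3.10% of all genes, and a median log2 fold change of 0.07. *Grin2a*, an NMDA receptor subunit, was at 48.2 to 144 CPM against 0 to 35.9 CPM (median 70.8 and 0; log2 fold change 6.57, SE 0.86, edgeR adjusted p = 4.91e-05), and was found in 70.1% and 3.60% of cells, or 62.8% and 3.30% after thinning. *Gria1*, *Gria4* and *Grm5* were also higher in oxytocin. On the other side *Grin3a*, a different NMDA subunit, was at 58.8 to 295 CPM in vasopressin (median 196) and 17.5 to 55.3 CPM in oxytocin (median 34.4; log2 fold change -2.39, SE 0.27, edgeR adjusted p = 7.72e-06). *Grin2b*, *Grm3*, *Grm7*, *Grik1* and *Gabra4* were higher in vasopressin as well, with log2 fold changes of -0.81, -1.27, -2.34, -3.84 and -2.97.

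Of 29 tested potassium channel genes 2 were higher in oxytocin and 3 higher in vasopressin, beside 4.85% and 3.10% of all genes, with a median log2 fold change of 0.34. The paralogous channel subunits *Kcnip1* and *Kcnip4*, calcium-binding partners of A-type channels, went opposite ways. *Kcnip1* had a median of 202 CPM in oxytocin and 51.3 CPM in vasopressin (log2 fold change 1.87, SE 0.22, edgeR adjusted p = 1.23e-05), and *Kcnip4* 74.4 and 268 CPM (-1.73, SE 0.17, edgeR adjusted p = 1.63e-06). *Kcnh1* and *Kcnmb4*, the latter a partner of calcium-activated BK channels, were higher in vasopressin. With cluster 2 alone as the vasopressin side *Kcnh1* was not called (log2 fold change -0.24, edgeR adjusted p = 0.95).

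Among 38 tested sodium, calcium, HCN and TRP channel genes 3 were higher in oxytocin and 6 in vasopressin, beside the same shares of all genes, and the summed level of the list was higher in vasopressin on all 10 plates (2127 to 3049 against 1456 to 2170 CPM). *Trpc5*, a cation channel, was at 75.1 to 247 CPM in vasopressin and 6.95 to 62.3 CPM in oxytocin (log2 fold change -2.45, SE 0.29, edgeR adjusted p = 1.58e-05) with no overlap. The sodium channel genes *Scn3b* and *Scn3a* were higher in vasopressin on 10 of 10 plates, with medians of 488 against 209 and 154 against 78.3 CPM. *Asic1*, *Cacng2* and *Cacna2d1* were the other members higher in vasopressin. *Asic4*, *Trpm4* and *Cacna2d2* were higher in oxytocin, and the call for *Cacna2d2* (edgeR adjusted p = 0.0245) was lost when plate Q8, AL5 or JM5 was left out.

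Most of the calcium-binding proteins that were called were higher in oxytocin, with 7 of 25 tested members called there and 2 in vasopressin, beside 4.85% and 3.10% of all genes (median log2 fold change 0.17). Of all calls 61.0% were higher in oxytocin. *Calb2*, calretinin, was at 103 to 334 CPM in oxytocin (median 197) and 0 to 24.5 CPM in vasopressin (median 0.455; log2 fold change 7.26, SE 0.57, edgeR adjusted p = 1.40e-07). It was found in 86.4% and 9.91% of cells, or 84.1% and 4.40% after thinning. The highest vasopressin plate was JM5, where all 15 UMIs came from the cell with more *Oxt* than *Avp*. *S100a10*, an annexin partner, was at 217 to 503 CPM against 0.36 to 65.3 CPM (log2 fold change 4.43, SE 0.48, edgeR adjusted p = 4.75e-05). *Pcp4*, a calmodulin modulator, had medians of 799 and 135 CPM, and *Necab2*, *Calb1* and *Vsnl1* were also higher in oxytocin. *Camk2d*, a calcium-dependent kinase on the list, was higher in vasopressin (median 207 against 83.5 CPM, log2 fold change -1.49, no overlap), as was *Rgs4*.

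Transcription factors were called on both sides. Of 28 tested 5 were higher in oxytocin and 4 in vasopressin, beside 4.85% and 3.10% of all genes. *Bcl11a*, a zinc finger factor, was at 15.8 to 111 CPM in vasopressin (median 60.4) and was found as 2 UMIs in oxytocin against 1345, a ratio of 1786 with a 95% interval of 494 to 14767 (edgeR adjusted p = 8.96e-09). It was found in 71.2% of vasopressin cells and 0.90% of oxytocin cells, or 62.6% and 0.48% after thinning. *Ebf3*, a factor of neuronal differentiation, was at 48.9 to 161 CPM against 0 to 8.49 CPM (log2 fold change -7.16, SE 0.76, edgeR adjusted p = 4.64e-06). *Bcl11a* was at 51.8 ± 35.8, 73.3 ± 20.6 and 50.2 ± 24.5 CPM in clusters 2, 3 and 4, and *Ebf3* at 76.1 ± 60.4, 76.2 ± 28.3 and 78.0 ± 34.8 CPM (SD, n = 5 plates each). Differences between the vasopressin clusters were not tested, and the 5 plates were not the same for each cluster.

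*Lhx2*, a LIM homeobox factor, was at 5.09 to 69.3 CPM in oxytocin and 0 to 14.9 CPM in vasopressin (log2 fold change 5.23, SE 1.02, edgeR adjusted p = 0.00227). *Zfhx3* was higher in oxytocin by 5.06 (SE 0.94), although on plate Q5 both sides were near 20 CPM. *Foxp1* and *Foxp2* were higher in oxytocin too. *Myt1l* and *Arnt2*, a partner of SIM1, were higher in vasopressin on 9 of 10 plates, by 0.54 and 0.80 in the log2 fold change. The call for *Arnt2* (edgeR adjusted p = 0.0214) was lost when JM5, JM7 or JM8 was left out. *Otp* and *Pou3f2*, factors needed to form these neurons, were not called, with means of 690 and 602 CPM and of 211 and 281 CPM.

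**Figure D2:**
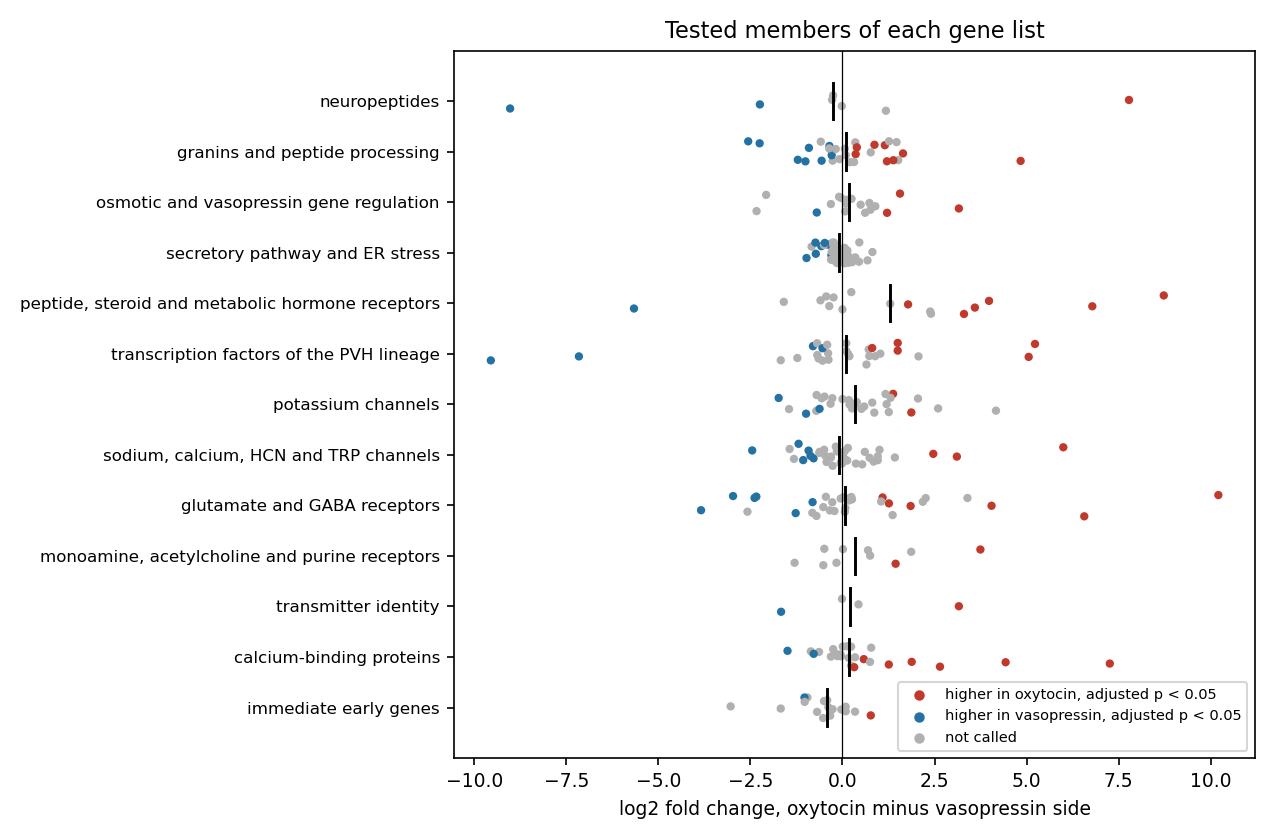
Each point is a tested gene of a list, with its log2 fold change (oxytocin minus vasopressin) on the x axis, coloured by its call, and black bars mark the list's median. Oxt and Avp are left out. The secretory pathway has 7 genes called, all of them higher in vasopressin, and the hormone receptors have 6 higher in oxytocin and 1 in vasopressin.

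The remaining lists held fewer calls, and their counts stand beside 4.85% of all genes called higher in oxytocin and 3.10% in vasopressin. Of 10 tested monoamine, acetylcholine and purine receptors, *Chrm2*, a muscarinic receptor (median 66.8 against 4.39 CPM, log2 fold change 3.75, SE 0.68, edgeR adjusted p = 0.00124), and *Hrh1*, a histamine receptor, were the members called. At an unadjusted p under 0.05 edgeR gave 3 higher in oxytocin and 0 in vasopressin, and DESeq2 called 4 and 1. The call for *Hrh1* (edgeR adjusted p = 0.0414) was lost in 13 of 21 other settings. Among 4 tested genes of transmitter identity, *Nos1* was called higher in oxytocin and 1 gene higher in vasopressin. *Slc17a6*, the gene of the vesicular glutamate transporter Vglut2, was at 73.9 to 184 CPM in oxytocin and 40.8 to 242 CPM in vasopressin and was not called (edgeR adjusted p = 0.321). *Slc32a1*, its GABA counterpart, had no UMI on either side.

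Of 17 immediate early genes tested 1 was called higher in oxytocin and 1 in vasopressin, near the shares of 4.85% and 3.10% over all genes. *Fosl2* was the member higher in oxytocin (median 169 against 107 CPM) and *Jun* the member higher in vasopressin (median 339 against 130 CPM). *Fos* was not called (means of 275 and 336 CPM, edgeR adjusted p = 0.425). The brain slices had been held in blockers of neuronal activity before cells were picked. On the astrocyte list, *Aldoc*, an enzyme of glycolysis that neurons also express, was at 102 to 190 CPM in oxytocin and 0 to 66.2 CPM in vasopressin (log2 fold change 3.95, SE 0.91, edgeR adjusted p = 0.0165), and 1 of 2 tested members was called. The sum of the astrocyte list was 125 to 204 CPM in oxytocin and 0 to 134 CPM in vasopressin, higher in oxytocin on all 10 plates, while *Aqp4* was near 0 on both sides. The part of astrocyte RNA in the results was not tested. Of the oligodendrocyte list both tested members were called, *Cnp* higher in oxytocin (median 41.7 against 7.88 CPM) and *Mbp* higher in vasopressin (median 47.4 against 18.9 CPM). The list's sums overlapped, at 25.0 to 104 and 40.2 to 106 CPM. The calls of both glial lists stand beside the same shares of all genes.

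The study's own cluster genes, which were chosen on these cells, were mostly below the level needed for a test. Of its 14 genes 6 were tested. Beside *Oxt* and *Avp* only *Pdyn* was called, while 4.85% and 3.10% of all genes were called higher in oxytocin and in vasopressin. *Sst* averaged 29.3 and 9.08 CPM, against 2753 CPM in the other PVH clusters (edgeR adjusted p = 0.495). *Crh*, *Trh*, *Penk*, *Gad2*, *Reln*, *Ntng1* and *Npy1r* were too low on both sides to be tested, with medians over plates of at most 1.82 CPM.

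Other genes with the largest fold changes were of mixed kinds. Higher in oxytocin on every plate were *Serpinf1*, the secreted factor PEDF (17.2 to 111 against 0 to 3.11 CPM, log2 fold change 7.76, SE 0.63, edgeR adjusted p = 1.68e-07), and *Prph*, the intermediate filament peripherin (101 to 317 against 0 to 57.1 CPM, 7.26, SE 0.86). For *Prph* all 35 UMIs of the highest vasopressin plate, JM5, came from the cell with more *Oxt* than *Avp*. *Myh14*, a nonmuscle myosin, was found as 883 UMIs against 1, a ratio of 332 with a 95% interval of 59.5 to 13144. *AA467197*, *Thsd7b* and *Mro* had log2 fold changes of 7.36, 7.18 and 7.15.

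Higher in vasopressin on every plate was *Galnt9*, an enzyme that starts O-linked sugar chains, found as 1096 UMIs against 1, a ratio of 2911 with a 95% interval of 521 to 115101 (edgeR adjusted p = 1.83e-08). *Dlk1*, a membrane protein related to Notch ligands, was at 88.5 to 251 CPM in vasopressin (median 173) and 0 to 18.9 CPM in oxytocin (median 2.97; log2 fold change -5.27, SE 0.43, edgeR adjusted p = 1.59e-07). The Notch coactivator *Maml3* (log2 fold change -4.59), *Bmp4* (17.2 to 41.8 against 0 to 3.57 CPM), the insulin receptor substrate *Irs4* and the phospholipase receptor *Pla2r1* were also higher. *Slc7a11*, a subunit of the cystine and glutamate exchanger, was found as 251 UMIs against 1, a ratio of 667 with an interval of 119 to 26440. Plate JM8 held 52 of the 251 UMIs. *Slc7a11* was found in 16 of 111 vasopressin cells (14.4%) and 1 of 221 oxytocin cells. *Irs4* was found in 17 of 111 vasopressin cells (15.3%) and 8 of 221 oxytocin cells. Most vasopressin cells thus held no UMI of *Slc7a11* or of *Irs4*. *H2-DMb2* (9.89 to 69.7 against 0 to 2.00 CPM) has a near-identical neighbour, *H2-DMb1*, and how reads were shared between the pair is uncertain.

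The other PVH clusters placed these differences. Of the 481 genes higher in oxytocin, their mean level in the other PVH clusters of the same plates lay between the sides for 266, above both for 149 and below both for 66. Of the 308 genes higher in vasopressin these counts were 175, 51 and 82. *Prlr* averaged 53.7 CPM and *Cckar* 44.9 CPM in the other clusters, above their oxytocin means of 40.8 and 38.3 CPM. Over plates the other clusters ran from 4.48 to 148 CPM for *Prlr* and from 15.7 to 106 CPM for *Cckar*, which spans the oxytocin ranges. For both genes the vasopressin level was the lowest of the 3 groups. *AA467197* and *Mro* averaged 1.16 and 0.29 CPM in the other clusters, below their oxytocin means of 18.8 and 18.9 CPM. *Bmp4* and *Slc7a11* averaged 0.77 and 0.44 CPM in the other clusters, below their vasopressin means of 27.5 and 13.3 CPM. These placements were not tested.

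Within each batch the contrast was tested again. On the AL and JM plates 224 of 8912 genes were higher in oxytocin (2.51%) and 170 higher in vasopressin (1.91%), and on the Q plates, with 4 plates, 45 of 11075 (0.406%) and 42 (0.379%). Of the 222 genes called higher in oxytocin on the AL and JM plates and tested on both, 220 (99.1%) had the same sign on the Q plates, where 71.9% of all genes with that sign did. For the 167 called higher in vasopressin it was 165 (98.8%), beside 54.9% of all genes. The plates of the batches are separate, and 35 and 38 genes were called in both. The clusters that define the sides were drawn from the cells of all plates together. The shared signs are therefore a description and no independent check. *Pam*, *Pcsk2*, *Nos1*, *Calb2*, *Grin2a*, *Tmed10*, *Tac1*, *Dlk1*, *Galnt9*, *Bcl11a* and *Pdyn* were called in each batch.

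The test of whether the contrast differed between batches called 0 of 9927 genes (0%), with 412 at an unadjusted p under 0.05 (edgeR interaction of side and batch), and it also called 0 without a filter on low counts. In sums simulated with the same spread for every gene, this test found 10.5% of genes made 4-fold different on the Q plates. That spread was not fitted to the real genes, so how many real differences of that size could have been found is not known. *Scn3b* had log2 fold changes of -1.63 on the Q plates and -0.67 on the others, and *Grin2a* 9.51 and 4.91. Neither difference was called (edgeR interaction adjusted p = 0.730 for *Scn3b*). The vasopressin level of *Grin2a* was 35.9 CPM on plate JM5 and at most 8.30 CPM on any other plate. JM5 also holds a vasopressin cell with more *Oxt* than *Avp*, and the part of that cell in the *Grin2a* level was not tested.

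**Figure D3:**
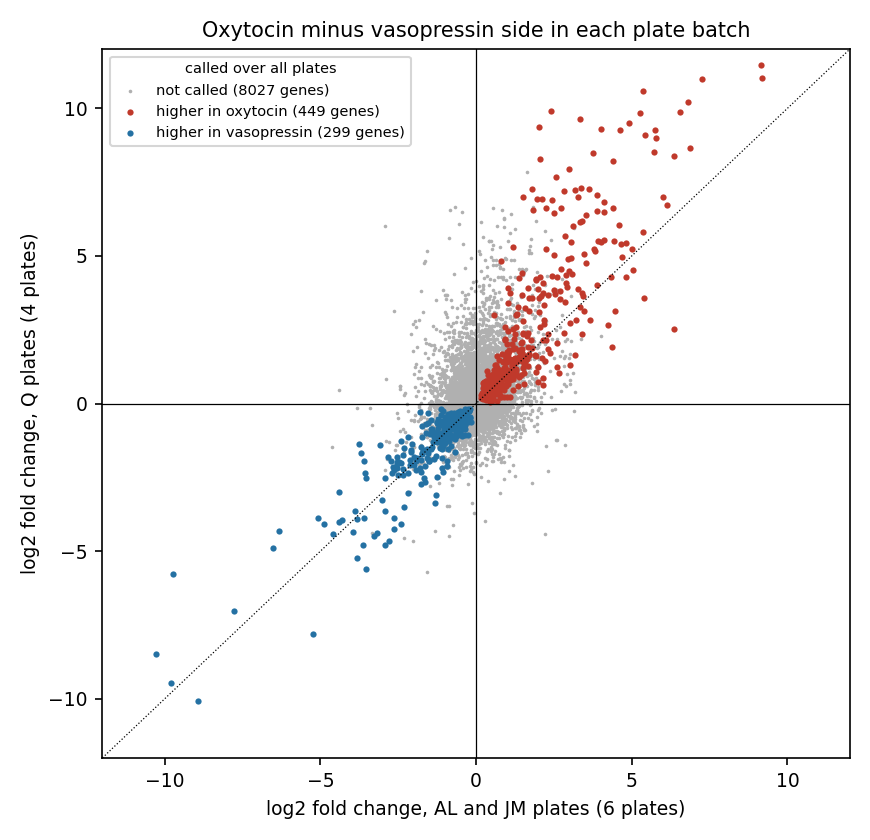
Each point is a gene tested on both batches, with its log2 fold change (oxytocin minus vasopressin) on the 6 AL and JM plates on the x axis and on the 4 Q plates on the y axis, and a dotted line marks equal values. Genes called over all plates are coloured and Oxt and Avp are left out. Of the genes called on the AL and JM plates and tested on both, 220 of 222 higher in oxytocin and 165 of 167 higher in vasopressin kept their sign on the Q plates.

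Oxytocin cells held more gene UMIs, in number and per spike-in UMI. The median number of gene UMIs per UMI of the ERCC spike-ins, a fixed amount of control RNA added to each well, was 15.5 ± 4.63 in oxytocin and 11.7 ± 4.60 in vasopressin cells (SD, n = 10 plates), 1.37-fold and higher in oxytocin on 10 of 10 plates. The exact two-sided paired permutation test over plates gave p = 0.00195, which is the lowest p that 10 plates can give, and 0.00260 when adjusted (Benjamini-Hochberg) for 4 measures. Genes detected per cell were 5925 ± 516 and 5184 ± 306 (1.14-fold, 10 of 10 plates, exact permutation p = 0.00195, adjusted 0.00260), and gene UMIs per cell were 1.33-fold higher on 10 of 10 plates with the same p. Spike-in UMIs did not differ detectably (0.944-fold, higher in oxytocin on 3 of 10 plates, exact permutation p = 0.404).

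On the AL and JM plates alone gene UMIs per spike-in UMI were 1.26-fold higher (6 of 6 plates, exact permutation p = 0.03125, adjusted 0.0417), and on the Q plates 1.54-fold (4 of 4 plates, exact permutation p = 0.125, the smallest that 4 plates allow). The oxytocin cells were deeper, so most shares of cells above are given with their value in thinned cells. With all cells thinned to equal UMIs, 312 genes were called higher in oxytocin and 229 higher in vasopressin.

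**Figure D4:**
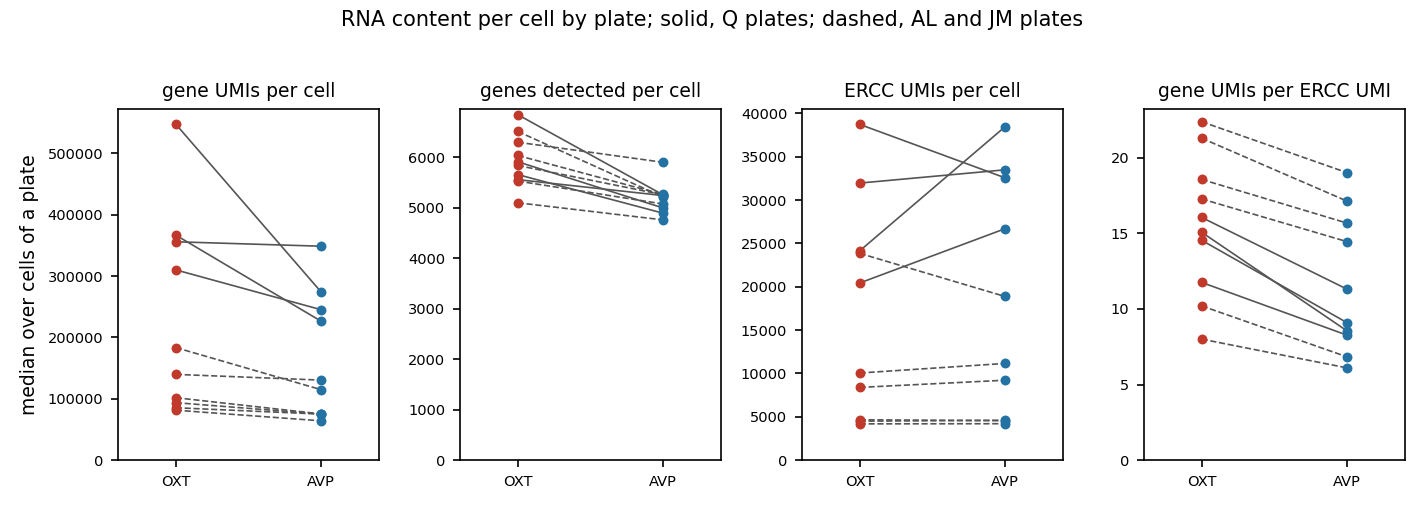
Each panel shows the plate medians of a measure per cell (UMIs, genes, spike-in UMIs, and the ratio of gene to spike-in UMIs) for the oxytocin (OXT) and vasopressin (AVP) sides, joined by plate, on axes that start at 0. Gene UMIs, genes detected and their ratio to the spike-ins are higher in oxytocin on all 10 plates, and spike-in UMIs on 3 of 10.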

How the data were processed

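The authors deposited raw UMI counts per gene (48397 genes) and per ERCC spike-in (92) for 960 wells on 10 plates, with a table of cells kept after quality control and their cluster numbers, used here as given. The submitters' processing notes name Trimmomatic 0.36, STAR 2.5.3a and the build GRCm38.p5. The clusters came from iterative clustering of co-expressed genes in these cells. Labels and methods name different sequencers and library kits. The authors' cluster membership values and barcode list were not used.

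Counts were summed per plate and side and tested with edgeR 4.0.16 (TMM, filterByExpr, robust quasi-likelihood F test, plate as block) under R 4.3.3. The pairing comes from the plate that both sides share. DESeq2 1.42.0 and limma 3.58.1 were alternatives. A CPM is a count over all gene UMIs of a sum. Per-cell medians and paired exact permutation tests were computed in Python 3.11.15 (scipy 1.17.1, pandas 2.3.3, numpy 2.4.6). Plates with the same number share a set of 96 well barcodes, so cells were told apart by plate and well. The floor was 3 UMIs over a side, and 95% intervals of count ratios were exact. In data simulated on the 9927 genes edgeR recovered 91.5% of 4-fold and 28.5% of 2-fold changes with 7 false calls, and DESeq2 97.5% and 46.5% with 46. The simulation gave every gene the same spread, which was not fitted to the real genes. Sequences were read from GENCODE and RefSeq tables of GRCm38.

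Members and the 18 gene lists were chosen with earlier results of these data known. Genes were named by rule: *Oxt* and *Avp*, the 12 largest called changes each way with the same direction on every plate, up to 4 called members per list and direction, and the study's cluster genes. Other genes named, called or not, were chosen after their values were seen. Some genes that the rule names are not reported here.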

Additional observations from a re-analysis of the deposited data

Results flagged for a closer look

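In 91 comparisons of a gene's ratio between sides over the 10 plates (log2 of oxytocin over vasopressin, CPM + 1), the highest or lowest plate was tested for distance from the others with Dixon's criterion, which by chance marks about 1 in 20. It marked 11. On plate JM5 the ratio was lowest for *Calb2* (2.17), *Prph* (0.875), *Rspo4* (2.12) and *Asic4* (0.420). Without the cells that held both hormones these JM5 ratios were 6.84, 6.74, 5.32 and 3.62, and the vasopressin side of that plate then had no UMI of any of the 4 genes.

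*Tac1* was least different on plate Q5 (-4.89, and -4.77 without the cells with both hormones), and *Zfhx3* on the same plate had a ratio of 0.0778 (0.112 without them). The ratio of *Pla2r1* was -1.43 on plate JM7, from 10 UMIs in oxytocin and 21 in vasopressin. The ratio of *Pcsk6* was -1.42 on plate Q6, against the direction of the other 9 plates, from 72 and 56 UMIs. *Slc7a11* (-5.52) and *Pcsk2* (-3.73) were most different on plate JM8, and *S100a10* (8.42) on plate Q6, where vasopressin cells held 1 UMI against 4819.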

How the results depend on the processing

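Beside 481 genes higher in oxytocin and 308 higher in vasopressin, edgeR gave 456 and 323 with DESeq2 size factors. It gave 520 and 278 with *Oxt* and *Avp* left out of library sizes, 643 and 305 without a filter, and 481 and 308 with at least 5 cells. From mean CPM per cell limma gave 557 and 406. DESeq2 gave 1158 and 640, and made more false calls in simulated data. Without the plate as a replicate block the counts were 216 and 218, and with cells thinned 312 and 229. Cluster 2 alone as the vasopressin side, with fewer plates, gave 77 and 60, and clusters 3 and 4 alone 217 and 160. Leaving out each plate in turn gave 361 to 459 and 257 to 301, on the Q plates 6 to 27 and 13 to 25, and on the AL and JM plates 110 to 230 and 103 to 167. On the Q plates the lowest counts came without Q7 (7 and 13) or Q8 (6 and 13). The count higher in oxytocin on the other plates fell to 110 without AL5, 134 without AL6 and 147 without JM6, and that in vasopressin to 103 without AL5. The median log2 fold change was 0.12 over the genes tested, -0.19 with DESeq2 and 0.36 without a filter over 23307 genes.

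Of list members, 47 were higher in oxytocin and 45 in vasopressin, 71 and 74 with DESeq2, 31 and 34 without the block, 16 and 12 with cluster 2 alone and 27 and 27 with clusters 3 and 4. Of 82 named and called genes other than *Oxt* and *Avp*, 34 were called in every setting with a value, 78 with every plate left out in turn, and 47 were not called with cluster 2 alone. No named call changed sign. With cluster 2 alone the log2 ratios per cell were 0.759 for gene UMIs, 0.322 for genes detected and 0.698 per spike-in UMI over 5 plates, too few for the exact test to pass the threshold. Depth limits low genes. In the simulation, with the same spread for every gene, 2-fold changes were recovered in 28.5% of cases.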

Other observations

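Genes outside the lists also separated the sides, and those given here were chosen after their values were seen. The smallest adjusted p of all genes tested belonged to *Gnas*, the locus of the stimulatory G protein, at 4761 to 6271 CPM in vasopressin (median 5103) and 1887 to 2437 CPM in oxytocin (median 2224). The log2 fold change of *Gnas* was -1.19 (SE 0.05, edgeR adjusted p = 1.28e-10), higher in vasopressin on 10 of 10 plates, and its mean in the other PVH clusters was 2822 CPM. The locus makes several overlapping transcripts, and which of them was counted was not resolved. *Tmed3* and *Erp29*, of the secretory pathway but not on its list, were higher in vasopressin by 1.43 and 1.06 in log2 fold change with no overlap of sides, at medians of 1431 against 556 and 1488 against 721 CPM.

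Cell surface and synaptic genes were among them. *C1ql2*, a secreted synaptic organiser, had medians of 239 CPM in vasopressin and 23.8 CPM in oxytocin, and *Prnp*, the prion protein gene, 647 and 162 CPM. The ephrin receptor *Epha4* had medians of 152 and 16.3 CPM and the growth factors *Ptn* and *Angpt1* 467 against 95.0 and 183 against 22.8 CPM. In oxytocin *Syt13*, a synaptotagmin, was at 48.2 to 149 CPM against 0 to 16.3 CPM, *Ntm*, a neural adhesion molecule, had medians of 242 against 28.2 CPM, and *Pkib*, an inhibitor of protein kinase A, 385 against 73.7 CPM. *Snap25*, a protein of vesicle fusion, had medians of 967 and 452 CPM with overlapping ranges. All of these passed the edgeR test on the all-gene scale.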
